A study of Mus musculus with 6 samples.

Results

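The genes described here are the 3 TGF-beta ligands (Tgfb1, Tgfb2, Tgfb3), the 3 TGF-beta receptors (Tgfbr1, Tgfbr2, Tgfbr3) and the 4 latent TGF-beta binding proteins (Ltbp1, Ltbp2, Ltbp3, Ltbp4). All 10 were taken by name, and all 10 were measured, each by 1 probe set, among 19938 genes in all. They were compared between the ascending aorta (3 arrays) and the descending aorta (3 arrays) of embryos 13.5 days postcoitum. Every sample came from untreated wild-type mice of the C57BL/6 background, so the segment is the only labelled difference. The study looked for expression that goes with the embryonic origin of a vessel. The labels call the arrays of each segment biological replicates and do not say which embryos, litters or pools stand behind them, so the p-values measure only the spread between these samples. Values are log2 expression after RMA, which removes background, brings the arrays to 1 common distribution and combines the probes into 1 value per probe set, so a difference of 1 is a 2-fold difference.

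TGF-betas are made as precursors whose propeptide stays wrapped around the mature growth factor and keeps it inactive. Latent TGF-beta binding proteins attach this small complex to the fibrillin-rich matrix, from which integrins and proteases can release the ligand. The free ligand brings together the type II receptor, Tgfbr2, and the type I receptor, Tgfbr1, and the latter phosphorylates Smad2 and Smad3. In the wall of the aorta this pathway governs smooth muscle differentiation and matrix production, and inherited defects of its ligands and receptors cause aneurysms that often involve the ascending segment.

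Smooth muscle and endothelial markers were bright in both segments. Over the 6 arrays Acta2, an actin of smooth muscle, ran from 13.63 to 13.77, and Cdh5, an endothelial cadherin, from 11.80 to 12.61. The array labelled ascending replicate 3 stood apart from the other ascending arrays. For 11685 of the 19938 genes (58.6%) it lay nearer to the descending mean than to the mean of ascending replicates 1 and 2. Over all genes it correlated at 0.9932, 0.9966 and 0.9975 with descending replicates 1, 2 and 3 (Pearson's r). With ascending replicates 1 and 2 it correlated less, at 0.9907 and 0.9858. Ascending replicates 1 and 2 correlated at 0.9931 with each other. With descending replicates 1, 2 and 3, ascending replicate 1 correlated at 0.9865, 0.9912 and 0.9911. Ascending replicate 2 did so at 0.983, 0.986 and 0.987. Ascending replicate 1 thus correlated more with descending replicates 2 and 3 than with ascending replicate 3. The results below are given with and without ascending replicate 3. Because its values were the reason for leaving it out, p-values without it are likely too small.

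Over all 6 arrays, 0 of the 10 members were called at an adjusted p of 0.05 by limma, a linear model fitted to all 19938 genes, and the whole table gave 0 calls (0%). The smallest adjusted p among the 10 was 0.53, which was also the smallest of all genes. At an unadjusted p under 0.05, 4 of the 10 were lower in ascending aorta, where 5.33% of all genes were, and 0 were higher, where 3.96% of all genes were. These 4 were Tgfb3, Tgfbr3, Ltbp1 and Ltbp2, with unadjusted p of 0.0041, 0.035, 0.027 and 0.0046 in limma. They share the adjusted p of 0.53. For 3 of the 10, Tgfb3, Ltbp1 and Ltbp2, all ascending arrays lay below all descending arrays, against 8.95% of all genes. None of the 10 lay above in that way, against 5.87% of all genes. The median difference, ascending minus descending, was -0.17 over the 10 genes and -0.021 over all genes. With 3 arrays a group the smallest two-sided p of an exact permutation test is 0.1, so none was used.

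**Figure D1:**
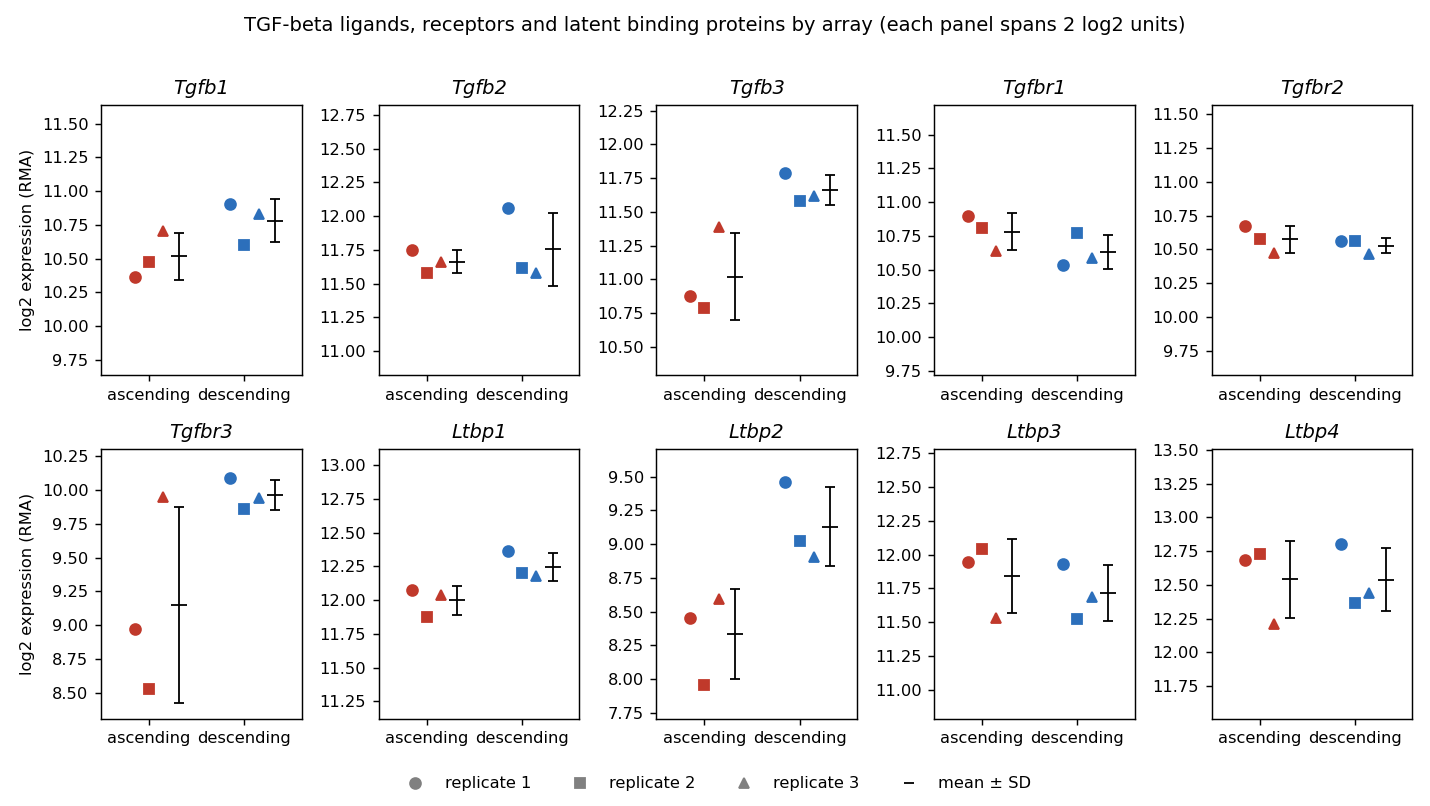
Log2 expression of the 10 genes on each array, in 1 panel per gene, with ascending arrays in red, descending arrays in blue, symbols for the replicate number and the mean ± SD of each group (n = 3) in black. Each panel spans 2 log2 units, and the ascending arrays lie below all descending arrays for Tgfb3, Ltbp1 and Ltbp2.

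Of the ligands, Tgfb3 had the lowest ascending level relative to descending. Tgfb3 is the isoform known for its role in palate closure and lung development. It stood at 10.88, 10.79 and 11.39 on ascending replicates 1, 2 and 3, and at 11.79, 11.58 and 11.62 on descending replicates 1, 2 and 3. The groups did not overlap, but ascending replicate 3 lay closer to the descending arrays than to the other ascending arrays. The means were 11.02 ± 0.32 (SD, n = 3) and 11.66 ± 0.11 (SD, n = 3), a difference of -0.65 ± 0.16 (SE), or 1.56-fold lower in ascending aorta, with an adjusted p of 0.53 in limma.

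Tgfb1, the isoform best known from immune regulation and fibrosis, showed a smaller difference in the same direction. It gave 10.37, 10.47 and 10.71 in ascending and 10.91, 10.60 and 10.83 in descending aorta. Ascending replicate 3 lay above descending replicate 2, so the groups overlapped. The difference was -0.27 ± 0.12 (SE), with a 95% interval from -0.55 to 0.015, and the adjusted p was 0.538 in limma.

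Tgfb2, the isoform required for cardiac outflow tract and aortic arch development, did not separate the segments. Its levels were 11.75, 11.58 and 11.66 in ascending and 12.06, 11.62 and 11.58 in descending aorta. Descending replicate 1 was the highest array, and descending replicates 2 and 3 lay within the range of the ascending arrays. The difference of -0.09 had a 95% interval from -0.41 to 0.23 (adjusted p = 0.84 in limma), and it was 0.064 without descending replicate 1.

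The signalling receptors had small differences. Tgfbr1, the type I receptor kinase, stood at 10.90, 10.81 and 10.63 in ascending and 10.54, 10.77 and 10.58 in descending aorta. Its groups overlapped, because ascending replicate 3 lay below descending replicate 2, and the difference was 0.15 with a 95% interval from -0.088 to 0.39 (adjusted p = 0.645 in limma). Tgfbr2, the type II receptor that binds ligand first, had the smallest range of the 10 genes over the arrays, 0.21. It gave 10.67, 10.58 and 10.48 in ascending and 10.56, 10.56 and 10.46 in descending aorta. The difference was 0.048, with a 95% interval from -0.15 to 0.24 (adjusted p = 0.859 in limma). For Tgfbr2 this interval leaves out a difference of 2-fold in either direction, but not a small one.

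Tgfbr3, or betaglycan, is a co-receptor without kinase activity that presents TGF-beta, Tgfb2 above all, to the signalling receptors. It had the widest range of the 10 genes over the arrays, 1.56. Its levels were 8.97, 8.53 and 9.95 on ascending replicates 1, 2 and 3, and 10.09, 9.86 and 9.94 on the descending arrays. Ascending replicates 1 and 2 lay far below every other array, while ascending replicate 3 lay among the descending arrays. The ascending mean was 9.15 ± 0.73 (SD, n = 3), and the descending mean was 9.96 ± 0.11 (SD, n = 3). They differed by -0.82 ± 0.32 (SE), with an adjusted p of 0.53 in limma.

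Among the latent binding proteins, Ltbp2 had the largest difference. Ltbp2 binds fibrillin microfibrils but, unlike its relatives, is not known to bind latent TGF-beta. It stood at 8.46, 7.96 and 8.59 in ascending and at 9.46, 9.03 and 8.90 in descending aorta. All ascending arrays, replicate 3 included, lay below all descending arrays, with 0.31 between the nearest pair. The means were 8.33 ± 0.33 (SD, n = 3) and 9.13 ± 0.29 (SD, n = 3), a difference of -0.79 ± 0.20 (SE), or 1.73-fold lower, with an adjusted p of 0.53 in limma. The probe set of Ltbp2 was the dimmest of the 10, though still at the 63.0th percentile of the means of all genes. RMA makes differences of dim probe sets smaller, and whether it did so here was not tested.

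Ltbp1, which carries latent TGF-beta into the matrix, had a smaller difference in that direction. It gave 12.08, 11.88 and 12.04 in ascending and 12.37, 12.20 and 12.18 in descending aorta. The groups did not overlap, and the gap between the nearest arrays was 0.10. The difference was -0.25 ± 0.092 (SE), with a 95% interval from -0.46 to -0.036 and an adjusted p of 0.53 in limma.

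Ltbp3, another carrier of latent TGF-beta, and Ltbp4, which is needed for elastic fibre assembly, did not separate the segments. Ltbp3 gave 11.95, 12.04 and 11.53 in ascending and 11.93, 11.53 and 11.69 in descending aorta. Ltbp4 gave 12.69, 12.73 and 12.21 in ascending and 12.80, 12.37 and 12.44 in descending aorta. In both genes ascending replicates 1 and 2 were high with descending replicate 1, and ascending replicate 3 was low. The differences were 0.13 (95% interval from -0.24 to 0.50) for Ltbp3 and 0.004 (95% interval from -0.39 to 0.40) for Ltbp4, with adjusted p of 0.801 and 0.995 in limma.

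Promoter stretches of Ltbp1 and Ltbp2 are shown because these were the binding proteins that lay lower on every ascending array. Both are from RefSeq, build GRCm38.p6, read 5′ to 3′ on the gene's strand and cut where the annotated gene begins. Ltbp1 has 2 promoter entries and Ltbp2 has 1. The Ltbp1 entry that reaches furthest upstream was used, and its other entry is not shown. The Ltbp1 stretch is chr17:75005279-75005479 on the + strand, 201 bases, and the Ltbp2 stretch is chr12:84876559-84876741 on the - strand, 183 bases. Capitals mark matches to the motifs searched on both strands, which were the SMAD element CAGAC, the GC box GGGCGG, the TATA box TATAAA, the homeobox core TAATTA and the E-box CACGTG.
Ltbp1: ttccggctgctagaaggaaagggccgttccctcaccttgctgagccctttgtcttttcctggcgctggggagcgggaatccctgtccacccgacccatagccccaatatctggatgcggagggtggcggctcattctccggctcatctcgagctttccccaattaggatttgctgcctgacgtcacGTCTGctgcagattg
Ltbp2: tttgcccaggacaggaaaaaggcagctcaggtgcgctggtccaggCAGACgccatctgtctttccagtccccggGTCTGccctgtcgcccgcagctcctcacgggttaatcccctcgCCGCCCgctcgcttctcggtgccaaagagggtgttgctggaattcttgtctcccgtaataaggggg
The Ltbp1 stretch held 1 match to CAGAC, and 36.0% of 32851 mouse promoter stretches of that length hold at least 1. The Ltbp2 stretch held 2 matches to CAGAC and 1 to GGGCGG, which 33.6% and 21.5% of promoter stretches of its length hold. The other motifs searched had 0 matches in either stretch; over all promoter stretches TATAAA stands in 9.18% and 8.49%, TAATTA in 4.20% and 3.90% and CACGTG in 4.36% and 3.78% at the lengths of Ltbp1 and Ltbp2. None of the matches overlapped another motif. A match is a description of the letters and shows no bound factor. Tgfb3 lies on chromosome 12 with Ltbp2 in the same RefSeq table, and Tgfb1 lies on chromosome 7 with Ltbp4.

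**Figure D2:**
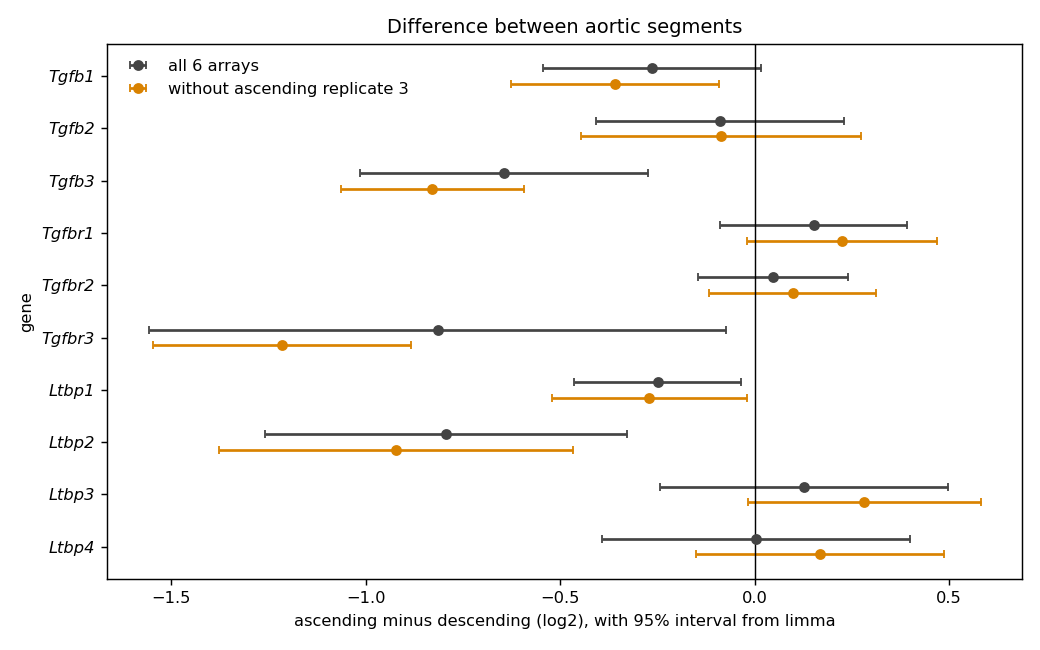
Difference between the segments for each of the 10 genes, ascending minus descending on the log2 scale, as points with 95% intervals from limma over all 6 arrays (grey) and over 5 arrays without ascending replicate 3 (orange). Tgfb3, Tgfbr3, Ltbp1 and Ltbp2 have intervals below 0 in both fits, and Tgfb1 has one below 0 only in the 5-array fit.

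Without ascending replicate 3, 3 of the 10 genes passed in limma, and all 3 were lower in ascending aorta, where 2.61% of all genes passed. Tgfbr3 was lower by 1.22 ± 0.14 (SE) on the log2 scale, or 2.32-fold (adjusted p = 0.00376 in limma). Tgfb3 was lower by 0.83 ± 0.10 (adjusted p = 0.00452) and Ltbp2 by 0.92 ± 0.20 (adjusted p = 0.0398) in the same fit. None of the 10 passed as higher, where 2.07% of all genes did. Both remaining ascending arrays lay below all descending arrays for 5 of the 10 and above for 3, against 18.9% and 15.6% of all genes. The largest higher mean was that of Ltbp3, at 0.28 (95% interval from -0.019 to 0.58, adjusted p = 0.323 in limma). Without descending replicate 1 as well, 2 of the 10 passed, against 2.35% of all genes in either direction. They were Tgfb3, at -0.77 (adjusted p = 0.0177), and Tgfbr3, at -1.15 (adjusted p = 0.026 in limma). Ltbp2 was then at -0.76, with an adjusted p of 0.0994. Over these 4 arrays the ascending arrays lay below the descending arrays for 5 of the 10 and above for 4, where 22.6% of all genes did so in each direction.

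The 10 genes placed ascending replicate 3 in different positions. Where 0 stands for the descending mean and 1 for the mean of ascending replicates 1 and 2, it lay at 0.012 for Tgfbr3, at 0.21 for Tgfb1 and at 0.33 for Tgfb3. For Ltbp2 and Ltbp1 it lay at 0.58 and 0.77, nearer to the other ascending arrays, and for Tgfb2 at 1.08. For Tgfbr1 it lay at 0.018. For Tgfbr2, Ltbp3 and Ltbp4 it lay beyond the descending mean, at -0.53, -0.64 and -1.93. The ends of the scale differed by only -0.088 for Tgfb2, 0.098 for Tgfbr2 and 0.17 for Ltbp4, so positions for these genes say little. It lay nearer to the descending mean for 7 of the 10 genes and for 58.6% of all genes. Descending replicate 1 was the highest descending array for 8 of the 10 genes, all but Tgfbr1 and Tgfbr2, and it is the highest for 49% of all genes. The differences of Ltbp2 and Tgfb3 ranged from -0.92 to -0.60 and from -0.83 to -0.53 when each array was left out in turn, and that of Tgfbr3 from -1.22 to -0.50. Without ascending replicate 2 the difference of Tgfbr3 was thus -0.50, and without ascending replicate 3 it was -1.22.

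Other genes of the pathway were counted from 6 lists with 66 measured genes outside the 10. None of the 66 passed over all 6 arrays, where 0% of all genes passed. At an unadjusted p under 0.05, 10 of the 66 were lower and 4 were higher in ascending aorta, against 5.33% and 3.96% of all genes. All ascending arrays lay below all descending arrays for 14 of them and above for 5, against 8.95% and 5.87% of all genes. Without ascending replicate 3, 7 passed as lower and 4 as higher in limma, against 2.61% and 2.07% of all genes.

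Genes that store or activate the latent complex had a median difference of -0.073 over 17 genes, where the median of all genes was -0.021. Among them, 2 were lower and 2 higher at an unadjusted p under 0.05, where 5.33% and 3.96% of all genes were. Lrrc32, or GARP, which tethers latent TGF-beta to the cell surface, stood at 9.38, 8.80 and 9.86 in ascending and 10.48, 9.96 and 9.92 in descending aorta, a difference of -0.77 ± 0.27 (SE). Itgb8, the integrin subunit of a receptor that releases active TGF-beta, was high on 2 arrays. It stood at 9.44 and 9.72 on ascending replicates 1 and 2, while ascending replicate 3 gave 8.23 and the descending arrays 8.22, 8.11 and 8.34. Its difference was 0.91 ± 0.35 (SE) over all arrays and 1.36 without ascending replicate 3 (adjusted p = 0.00114 in limma). Itgb3, a subunit of the vitronectin receptor, differed by -0.49 ± 0.13 (SE) and the crosslinking enzyme gene Tgm2 by 0.42 ± 0.14. Without ascending replicate 3, Lrrc32, Tgm2 and Nrros, a tether of latent TGF-beta in myeloid cells, passed as well (adjusted p = 0.0353, 0.0264 and 0.0399 in limma). Nrros was then at -0.88 and Lrrc32 at -1.03.

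Co-receptors and related type I receptors held the decoy receptor gene Bambi, which lacks a kinase domain and dampens signalling. It stood at 11.11, 11.22 and 10.48 in ascending and 10.18, 10.11 and 10.36 in descending aorta. All ascending arrays lay above all descending arrays, with a difference of 0.72 ± 0.19 (SE, adjusted p = 0.53 in limma). Without ascending replicate 3 the difference of Bambi was 0.95 (adjusted p = 0.00299 in limma). Eng and Acvrl1, the co-receptor and type I receptor of endothelial cells, lay lower on all ascending arrays, at -0.46 ± 0.15 and -0.27 ± 0.095 (SE). Tgfbrap1, a receptor-associated protein gene, differed by -0.20. The median of the list was -0.096 over 6 genes.

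Extracellular inhibitors and ligand-binding matrix proteins had a median difference of -0.11 over 10 genes. Aspn, or asporin, a small proteoglycan that binds TGF-beta, stood at 8.83 and 8.0 on ascending replicates 1 and 2. Ascending replicate 3 gave 10.42 for it, within the descending range of 10.35 to 10.72. Aspn differed by -1.47 ± 0.53 (SE) over all arrays and by -2.14 without ascending replicate 3 (adjusted p = 0.00228 in limma). Fst, the activin antagonist follistatin, differed by -0.48 ± 0.11 (SE) with no overlap, and the related Fstl3 by 0.30. Lum, or lumican, differed by 0.31. Without ascending replicate 3, Fst passed as lower and Fstl3 as higher (adjusted p = 0.0106 and 0.0233 in limma).

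Smads and their regulators had 0 of 14 genes at an unadjusted p under 0.05, where 5.33% of all genes were lower and 3.96% higher, and a median of -0.078. Smad3, a transcription factor that the receptors activate, stood at 9.96, 9.97 and 10.53 in ascending and 10.35, 10.38 and 10.42 in descending aorta. The difference of Smad3 was -0.23 over all arrays and -0.41 without ascending replicate 3 (adjusted p = 0.0379 in limma). Smad4, the shared partner of the receptor-activated Smads, differed by -0.11. Pmepa1, a feedback inhibitor of TGF-beta signalling, differed by -0.15 and Zfyve9, which brings Smads to the receptor, by 0.13.

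Genes that TGF-beta commonly induces had a median difference of -0.12 over 17 genes, 2 of which, Ltbp2 and Tgfb1, are among the 10. At an unadjusted p under 0.05, 4 of the 17 were lower and 0 higher, against 5.33% and 3.96% of all genes. These 4 include Ltbp2, already counted among the 10. Ccn2, the matricellular protein also called connective tissue growth factor, stood at 12.40, 12.16 and 12.41 in ascending and 12.98, 12.63 and 12.65 in descending aorta. The groups did not overlap, and the difference was -0.43 ± 0.12 (SE, adjusted p = 0.53 in limma). Postn, or periostin, differed by -0.45, and the collagen I chains Col1a1 and Col1a2 by -0.37 and -0.25. Col1a1 and Postn passed as lower without ascending replicate 3 (adjusted p = 0.0305 and 0.0317 in limma). The other 11 genes of this list outside the 10 ran from -0.17 for Tgfbi to 0.23 for Bhlhe40. Ligands of the wider superfamily had a median of -0.074 over 7 genes, with Inhba, an activin subunit, at 0.32, Mstn at 0.37, Amh at -0.22 and Nodal at -0.14. Mstn and Nodal lay below the 25th percentile of the means of all genes.

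**Figure D3:**
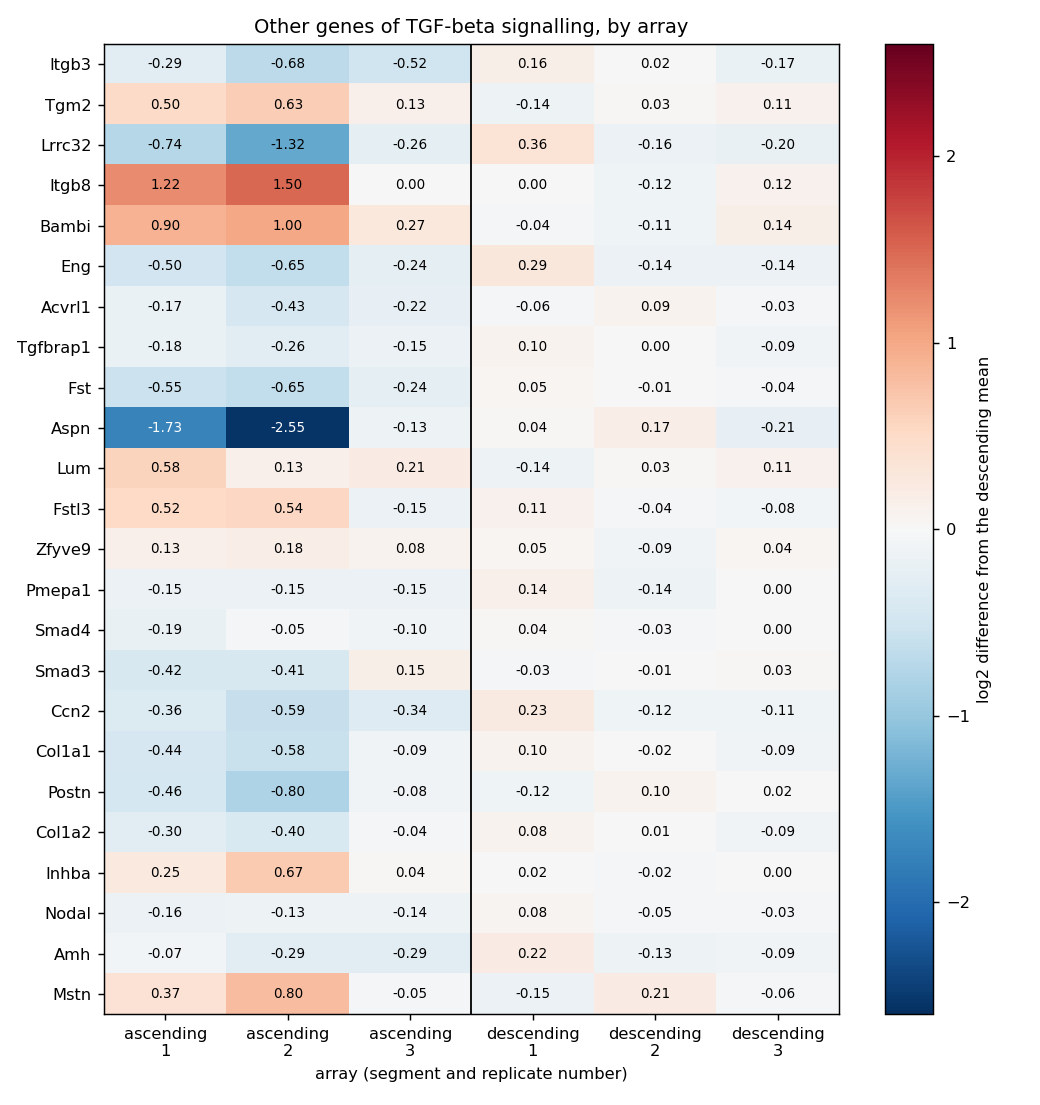
Difference of each array from the descending mean, on the log2 scale, for the genes with the smallest unadjusted p in each of the 6 pathway lists; columns are the arrays and colours run from blue (lower) to red (higher). Aspn at -1.73 and -2.55 and Itgb8 at 1.22 and 1.496 on ascending replicates 1 and 2 stand out, while ascending replicate 3 is near 0 for both.

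Markers of other cell types also differed between the arrays. In a dissected tissue, fewer cells of a type and less RNA per cell cannot be told apart. Endothelial markers were lower by their means in 12 of 12 genes, and on ascending replicates 1, 2 and 3 their median distance from the descending mean was -0.49, -0.51 and -0.15. Their summed level, as log2 of the sum of linear values, ran from 14.08 to 14.63 in ascending and from 14.67 to 14.85 in descending aorta. Mesothelial and epicardial markers were higher in 7 of 8 genes, with medians of 1.699, 1.59 and 0.24 on the ascending arrays, and summed levels from 12.51 to 13.64 against 12.27 to 12.46. Cardiac muscle markers were higher in 10 of 11 genes, with summed levels from 12.69 to 13.44 in ascending and 12.44 to 12.72 in descending aorta. Fibroblast markers were lower in 6 of 8 genes, with summed levels from 14.81 to 15.16 against 15.15 to 15.21. Macrophage and leukocyte markers were lower in 11 of 12 genes, with summed levels from 12.14 to 13.58 in ascending and 13.25 to 13.40 in descending aorta. Smooth muscle markers were lower in 5 of 8 genes, with summed levels from 14.79 to 15.08 against 14.86 to 14.92. Neuronal and Schwann cell markers were lower in 6 of 6 genes (10.93 to 11.01 against 11.11 to 11.35). Erythroid markers were lower in 3 of 6 (14.09 to 14.46 against 14.29 to 14.62) and cartilage markers in 3 of 7 (11.18 to 11.34 against 11.02 to 11.22). Some fibroblast and smooth muscle markers are also genes of the pathway lists, and the fibroblast and mesothelial lists share a gene. Without ascending replicate 3, 5 of 12 endothelial and 3 of 12 macrophage and leukocyte markers passed as lower in limma and 0 as higher. Of mesothelial and epicardial markers 5 of 8, and of cardiac muscle markers 2 of 11, passed as higher and 0 as lower. Fibroblast markers gave 2 lower and 1 higher, cartilage markers 1 and 2, and smooth muscle markers 0 and 1. Erythroid and neuronal markers gave 0. Of all genes, 2.61% passed as lower and 2.07% as higher. RMA gives no value of 0, and the markers below the 25th percentile of the means of all genes were Aif1 and Matn1. The part of these cell types in the differences of Tgfb3, Tgfbr3, Ltbp1, Ltbp2, Eng, Acvrl1 and Lrrc32 was not tested.

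**Figure D4:**
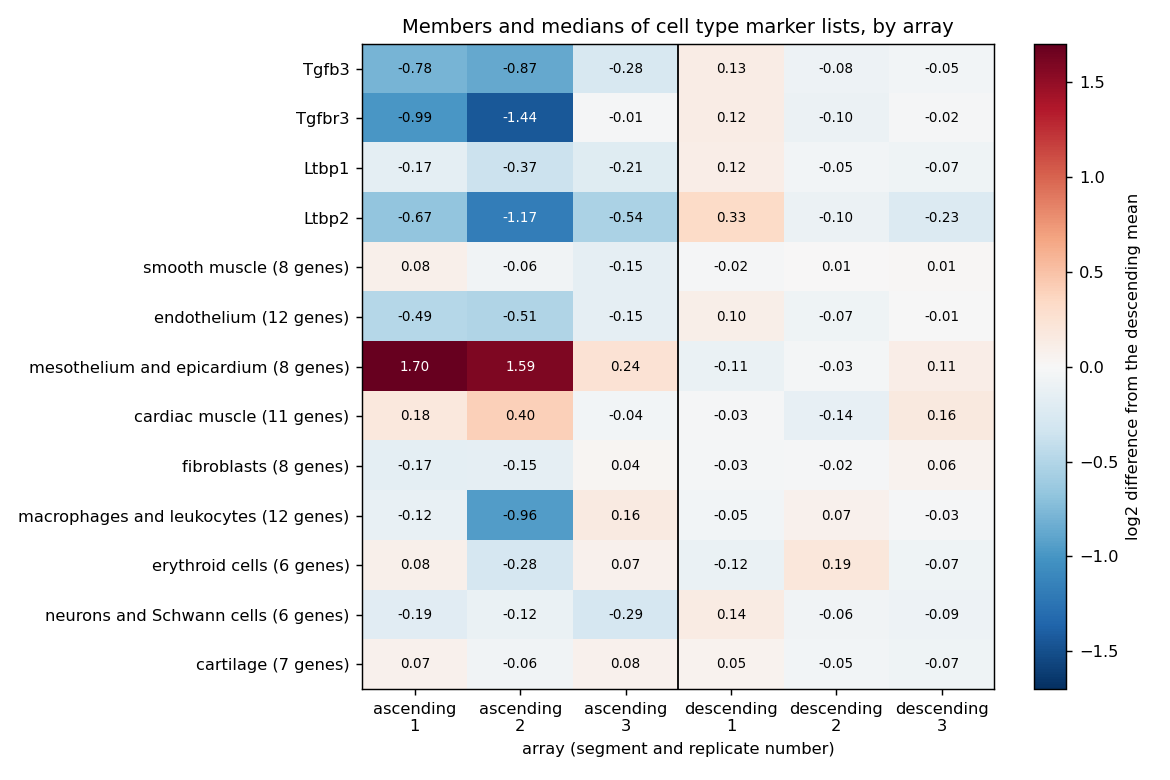
Difference of each array from the descending mean, on the log2 scale, for Tgfb3, Tgfbr3, Ltbp1 and Ltbp2 and for the median of each cell type marker list; columns are the arrays and colours run from blue (lower) to red (higher). Ascending replicate 3 is near 0 for Tgfbr3 at -0.015, while Ltbp2 is at -0.54 on it. The endothelial median on it, -0.15, is below those of the descending arrays, which run from -0.074 to 0.10.

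The genes whose pattern over the 6 arrays was most like that of the 3 members with the largest differences were picked by Pearson's r among genes with a range of at least 1, as a description; the arrays share their segment, and high coefficients are easy to reach over 6 points. For Tgfbr3 they were Kcna6, Bnc2 and Lepr, each with an r of 0.998. For Ltbp2 they were Tmem100 (r = 0.993), Efhd1 (r = 0.988) and Mylk4 (r = 0.983). For Tgfb3 they were Adamts12 and Elmod1 (r = 0.997 for both) and Olfr558 (r = 0.993). Bnc2, a zinc finger transcription factor gene, stood at 8.74 and 7.93 on ascending replicates 1 and 2 and between 10.47 and 10.74 on the other 4 arrays, the same order of arrays as for Tgfbr3. Tmem100, a membrane protein gene of endothelium, stood at 6.98, 6.602 and 7.04 in ascending and 7.95, 7.51 and 7.45 in descending aorta.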

How the data were processed

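The authors deposited log2 values, 1 per probe set and array. The submitters' processing notes name RMA and Partek 6.6 with no parameters. The genome build is not given in the sources used here. Array medians lay between 7.14 and 7.22. The number of arrays limits the precision, and RMA hides a change shared by most genes. Of 35556 probe sets, 21789 carried 1 gene symbol in the platform's annotation (1621 had several, 12146 none); 21698 matched the RefSeq table of GRCm38.p6 by Entrez number and 0 symbols changed. The probe set with the highest mean was kept for each gene. Segments were compared with limma 3.58.1 (lmFit, eBayes; R 4.3.3) on 19938 genes and 6 arrays, two-sided, without covariates or a filter, with Benjamini-Hochberg adjustment over all genes at 0.05. The script was tested on simulated data. Tables and plots used Python 3.11.15, pandas 2.3.3 and matplotlib 3.10.9.

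The 10 genes and the lists were chosen with earlier results of these data known. The text names all 10 genes, up to 4 genes of each pathway list with the smallest unadjusted p, and the 3 genes most like each of the 3 members with the largest differences, leaving out unnamed transcripts, pseudogenes and small RNA genes. Nrros, Acta2, Cdh5, Tgfbi and Bhlhe40 were named as well, after their values were seen. Leaving out ascending replicate 3 together with descending replicate 1 was added after seeing the data. Of the pathway lists, 4 of the 70 genes outside the 10 were not analysed here.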

Additional observations from a re-analysis of the deposited data

How the results depend on the processing

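Repeated quantile normalization, median-centring, leaving out genes below the 25th percentile, the mean of probe sets, all probe sets, robust estimation with a variance trend, array weights and a replicate block each called 0 genes in the whole table and 0 of the 10, and the lowest adjusted p among the 10 under them was 0.265. With array weights Tgfb2 changed sign to 0.031, and the median of the extracellular inhibitors was -0.061. Deviations of same-numbered arrays from their group means correlated at -0.080, -0.055 and 0.024, and ascending replicate 1 correlated best with descending replicate 2 (r = 0.17). The labels do not say whether same-numbered arrays are paired. These correlations cannot settle it, because the deviations of 3 arrays from their own mean depend on each other. The replicate block left the differences as they were, -0.65 for Tgfb3 and -0.79 for Ltbp2, each with an adjusted p of 0.602 in limma, and changed no other call.

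Leaving out arrays gave 0 genes called in the whole table in 5 of the single-array fits and 933 without ascending replicate 3, or 469 without descending replicate 1 as well. Of the 10, between 0 and 3 were called, and between 3 and 9 did not overlap; the 9 came from 4 arrays, where 22.6% of all genes do so in each direction. The differences ranged from -0.83 to -0.53 for Tgfb3, from -1.22 to -0.50 for Tgfbr3, from -0.92 to -0.60 for Ltbp2, from 0.026 (without ascending replicate 2) to 0.39 for Ltbp3, from 0.093 (without ascending replicate 1) to 0.23 for Tgfbr1, from -0.18 to 0.067 for Tgfb2, from -0.0011 to 0.11 for Tgfbr2 and from -0.089 to 0.30 for Ltbp4. Ltbp3 was at 0.033 without descending replicate 2 and 0.075 without ascending replicate 1. Tgfb2 was positive only without descending replicate 1 (0.064, and 0.067 without ascending replicate 3 too). Tgfbr2 was negative only without ascending replicate 1 (-0.0011). Ltbp4 was negative without ascending replicate 1 (-0.067), ascending replicate 2 (-0.089), descending replicate 2 (-0.081) or descending replicate 3 (-0.044).

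List medians ranged from -0.11 to -0.0026 for storage and activation, from -0.13 to -0.034 for co-receptors, from -0.14 to -0.040 for extracellular inhibitors, from -0.10 to -0.0048 for Smads, from -0.16 to 0.036 for other ligands and from -0.15 to -0.078 (without descending replicate 1) for induced genes. In that order the lists had from 0 to 4, 1, 3, 1, 0 and 3 genes called, the last 3 with Ltbp2 among them. Tgfb1, Tgfb3, Tgfbr1, Tgfbr3, Ltbp1, Ltbp2 and Ltbp3 kept their direction in all 15 alternatives. Some of these could not change a member's difference. Each member had 1 probe set, so the mean of probe sets and all probe sets returned the same value. The 25th percentile filter, robust estimation with a variance trend and the replicate block also left every difference as it was. The cause of the changes under the other alternatives was not tested.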
